A study of Mus musculus with 80 samples.

Results

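The genes described here are the secreted and cell-surface proteins through which cells send and receive Wnt signals: 19 Wnt ligands, 10 Frizzled (Fzd) receptors, 4 R-spondins (Rspo) and 10 secreted antagonists, 43 genes by name out of 21627 protein-coding genes measured. They were examined for H3K27me3, trimethylated lysine 27 of histone H3, by CUT&RUN, in which an antibody tethers a nuclease that releases the marked chromatin, on fibroblasts purified with magnetic beads from digested mouse uterus. Kdm6b, a demethylase of this mark, was deleted with Pgr-Cre, which acts in every cell that expresses the progesterone receptor, or with Pdgfra-Cre, which acts in Pdgfra-expressing cells. Both kinds of conditional knockout (cKO) were set against Kdm6b f/f controls.

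Fibroblasts of Pgr-Cre cKO and control females were taken at 5 combinations of gestation day (GD) and site. Inter-implantation tissue (IIS) was used for GD5.5, for GD8.5 and for GD14.5, and implantation-site tissue (IS) for GD14.5 and for GD18.5. The Pdgfra-Cre cKO and its controls came from GD14.5 IS. A separate set, from B6CBAF1/J females with no knockout, held naturally mated females (IIS, GD5.5), females mated with a vasectomized male (uterus, GD5.5), non-pregnant females given progesterone for 3 days, and GD0.5 uterus. All mated females of both sets were bred to B6 males or, in the vasectomized group, to vasectomized males. Each group had 3 samples, pooled by the submitters into 1 list of broad peaks, so 16 lists stand for 48 of the 80 labelled samples.

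Wnt ligands bind a Fzd receptor together with the co-receptor Lrp5 or Lrp6 and stabilise beta-catenin, or act through other routes that steer cell polarity and movement. R-spondins bind Lgr receptors and keep Fzd at the cell surface, Sfrp proteins, Frzb and Wif1 bind the ligands, and Dkk proteins block the co-receptors. In the uterus Wnt signals pass between epithelium and stroma and are known to take part in gland formation, implantation and decidualization. H3K27me3, laid down by Polycomb complexes, is known to cover many developmental genes, signalling genes among them, while they are silent.

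The value given for a gene is its coverage, the percent of the gene and its 2 kb flanks inside peaks, in mm10. Differences are in percentage points. A list pools its samples, its read depth is unknown, and 6 cKO and control pairs of lists give the only spread. The lists are lenient, with median peak folds over background of 1.12 to 1.15 in the Kdm6b set and 1.09 in the B6CBAF1/J set, which was called with other spacing and is kept apart. Peaks of the Kdm6b set covered 685 to 740 Mb in cKO lists and 609 to 731 Mb in control lists, more in the cKO list of 5 of 6 pairs. A cell mixture cannot be told apart from a change within fibroblasts in such lists. Coverage of the marker lists was low for fibroblast genes, where 10 of 12 averaged under 10%, and high for epithelial genes, where 9 of 9 averaged at least 50%. Over all genes 58.5% averaged under 10% and 23.4% at least 50%. Low coverage was not particular to fibroblast genes. Under 10% were 3 of 6 smooth muscle, 2 of 6 endothelial, 2 of 7 immune and 3 of 5 trophoblast genes. Pdgfra had 23.4% in cKO lists and 22.9% in control lists (means, n = 6 each). The Kdm6b gene itself had 4.86% in cKO lists and 3.13% in control lists (means, n = 6 each), which does not check its deletion. None of the 43 genes lies on the X chromosome.

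In mammals Polycomb domains are known to form over starts rich in CpG. The 250 bases before the start are shown for 3 genes that rose in cKO lists (Wnt2, Dkk2 and Wnt7a), for Wnt3a, at 98.9 to 100% in the 12 Kdm6b lists, and for the neighbouring Wnt9a and the upstream start of Wnt5b. The first 4 have a start inside peaks in all 12 Kdm6b lists, and the last pair was chosen after their values were seen. All are from RefSeq on GRCm38.p6 (mm10), written 5′ to 3′ along the gene, with each CG dinucleotide in capitals.
Wnt2, chr6:18030446-18030695, minus strand: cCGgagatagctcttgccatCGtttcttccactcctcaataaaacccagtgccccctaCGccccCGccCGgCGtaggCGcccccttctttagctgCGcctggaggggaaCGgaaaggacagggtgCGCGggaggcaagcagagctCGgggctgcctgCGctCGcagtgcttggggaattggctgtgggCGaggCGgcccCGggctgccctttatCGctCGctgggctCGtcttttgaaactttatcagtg
Dkk2, chr3:132085042-132085291, plus strand: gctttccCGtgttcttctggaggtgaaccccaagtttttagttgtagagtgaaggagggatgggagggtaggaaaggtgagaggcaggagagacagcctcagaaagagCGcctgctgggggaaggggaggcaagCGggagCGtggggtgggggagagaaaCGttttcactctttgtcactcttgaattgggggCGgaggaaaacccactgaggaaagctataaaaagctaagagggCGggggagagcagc
Wnt7a, chr6:91411354-91411603, minus strand: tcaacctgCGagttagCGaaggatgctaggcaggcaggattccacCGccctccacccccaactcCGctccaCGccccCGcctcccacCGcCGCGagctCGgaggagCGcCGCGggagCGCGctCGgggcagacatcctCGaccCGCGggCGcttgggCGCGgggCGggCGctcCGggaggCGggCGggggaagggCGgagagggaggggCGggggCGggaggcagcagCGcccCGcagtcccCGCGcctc
Wnt3a, chr11:59290752-59291001, minus strand: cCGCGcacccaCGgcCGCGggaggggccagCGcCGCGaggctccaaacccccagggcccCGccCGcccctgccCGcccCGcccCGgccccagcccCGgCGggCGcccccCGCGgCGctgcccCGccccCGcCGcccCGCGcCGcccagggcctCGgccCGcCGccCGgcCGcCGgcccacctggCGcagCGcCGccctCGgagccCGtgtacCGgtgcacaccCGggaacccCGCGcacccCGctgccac
Wnt9a, chr11:59306680-59306929, plus strand: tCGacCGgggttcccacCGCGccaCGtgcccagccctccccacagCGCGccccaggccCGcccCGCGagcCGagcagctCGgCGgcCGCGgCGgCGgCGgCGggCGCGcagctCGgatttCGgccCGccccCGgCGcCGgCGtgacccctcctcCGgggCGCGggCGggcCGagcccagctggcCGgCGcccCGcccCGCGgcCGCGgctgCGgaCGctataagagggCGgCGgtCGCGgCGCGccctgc
Wnt5b upstream start, chr6:119544348-119544597, minus strand: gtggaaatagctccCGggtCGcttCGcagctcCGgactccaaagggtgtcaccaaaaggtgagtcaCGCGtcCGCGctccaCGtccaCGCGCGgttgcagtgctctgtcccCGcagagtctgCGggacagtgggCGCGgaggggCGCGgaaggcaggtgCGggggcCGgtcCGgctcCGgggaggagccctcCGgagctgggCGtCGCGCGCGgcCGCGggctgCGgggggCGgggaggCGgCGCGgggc

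CG occurred 20 times before Wnt2, 7 times before Dkk2, 34 before Wnt7a, 41 before Wnt3a, 48 before Wnt9a and 35 before the upstream start of Wnt5b. The median over the same 250 bases of all 32851 RefSeq starts was 6, and 92.1% of them held at least 1 CG. The 2 strands read alike for CG, and the match is a description of the letters. Over the 300-base windows of the table (250 bases before to 50 after), the 17 starts of Wnt genes that lay inside peaks over 2 kb either side in all 12 Kdm6b lists held 6 to 53 CG (median 26). The other 15 starts held 4 to 58 (median 29), so the counts of the 2 sets overlapped throughout. The table holds 29 of the 43 genes.

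Across the Wnt genes, coverage ran from the whole span to none of it. Averaged over the 12 Kdm6b lists, 21 of 43 genes had at least 50% of their window in peaks, which was so for 23.4% of all genes. The median over the 43 genes was 44.0%, and over all genes 3.46%. The roles were unlike each other. At least 50% was reached by 13 of 19 ligands, 3 of 10 Fzd receptors, 1 of 4 R-spondins and 4 of 10 antagonists, and the median was 82.7% for ligands, 14.6% for receptors, 27.8% for R-spondins and 37.7% for antagonists. In the B6CBAF1/J set the counts were 13 ligands, 3 receptors, 2 R-spondins and 4 antagonists, and the medians 90.1%, 11.0%, 43.3% and 25.02%. These are descriptions of genes picked by name, with no test.

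**Figure D1:**
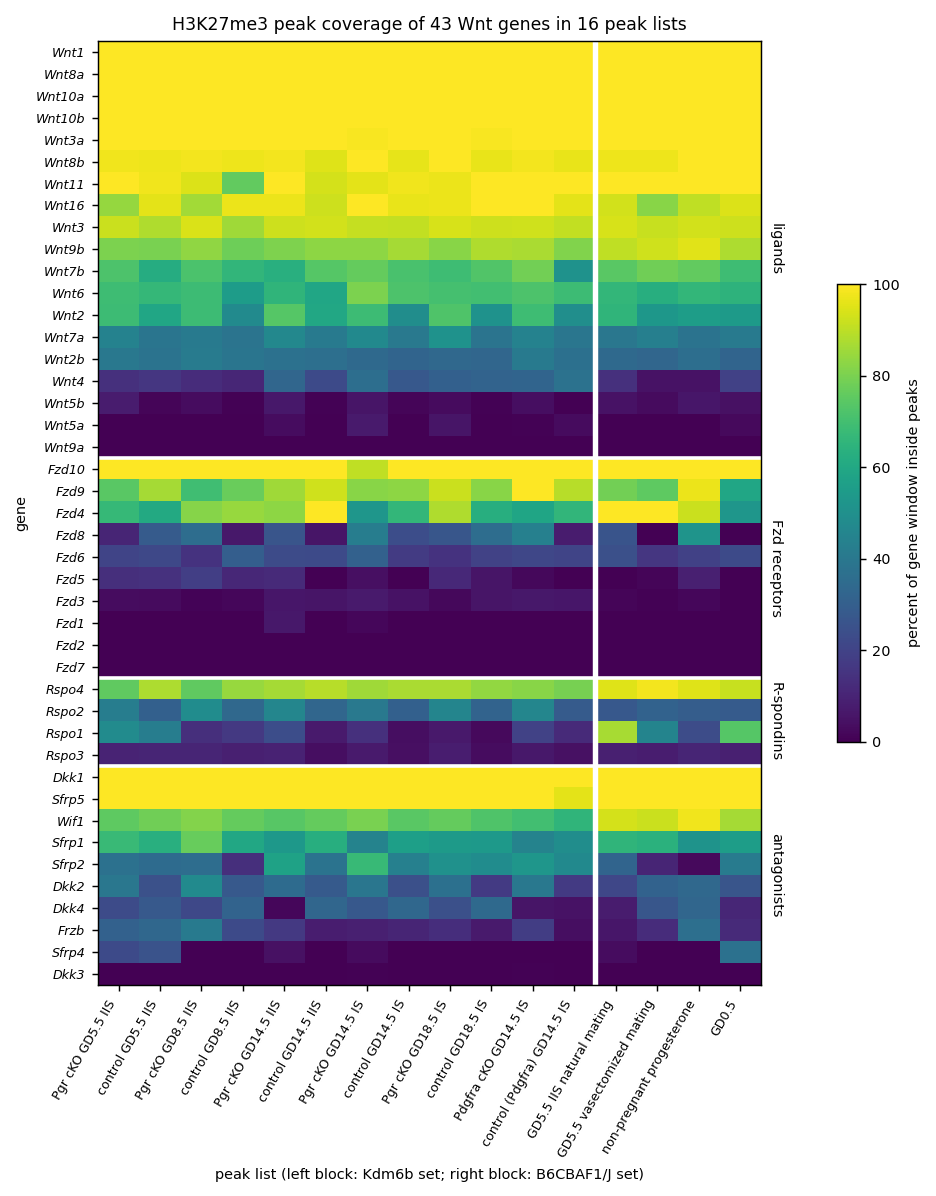
Percent of each gene window inside H3K27me3 peaks (colour, 0 to 100%) for 43 Wnt genes (rows, by role and by mean over the Kdm6b set) in 16 pooled peak lists (columns, cKO left of its control; the white line separates the B6CBAF1/J set). Ligands fill the top of the scale, with 13 of 19 averaging at least 50%, against 3 of 10 Fzd receptors.

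Among the ligands, Wnt1, Wnt8a, Wnt10a and Wnt10b lay wholly inside peaks in each of the 12 Kdm6b lists. Wnt1 patterns the midbrain, and Wnt10a and Wnt10b act in tooth, skin and fat. Wnt3a, which drives body-axis formation, was at 98.9 to 100%, and Wnt8b at 95.3 to 100%. Wnt11 was at 76.0 to 100%, Wnt16 at 84.3 to 100%, Wnt3 at 85.6 to 94.2% and Wnt9b at 78.0 to 88.2%. Wnt7b was at 50.8 to 78.7%, Wnt6 at 55.2 to 80.4%, Wnt2 at 48.0 to 73.8%, Wnt7a at 38.4 to 50.8% and Wnt2b at 32.2 to 41.7%. Wnt4, a ligand required for decidualization, had 10.8 to 37.9%. At the low end stood Wnt5a, a stromal ligand of the non-canonical branch, with 0 to 7.15%, Wnt5b with 0 to 7.64%, and Wnt9a, listed at 0 in all 16 lists.

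Fzd10 led the receptors with 90.4 to 100%, followed by Fzd9 with 69.3 to 100% and Fzd4, also the receptor of Norrin in blood vessels, with 52.4 to 100%. Fzd8 varied from 5.83 to 43.6%, Fzd6 had 14.7 to 31.2% and Fzd5 0 to 18.6%. Fzd3 had 1.11 to 7.36% and Fzd1 0 to 6.31%, while Fzd2 and Fzd7 were listed at 0 in all 16 lists. Of the R-spondins, Rspo4, known in humans for its part in nail growth, was at 75.4 to 89.2% and Rspo3, which acts in vessel and placenta development, at 3.20 to 10.4%. Rspo2 had 28.7 to 48.5% and Rspo1 2.71 to 48.4%.

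The antagonists spread as widely. Dkk1, which blocks the co-receptor Lrp6, lay wholly inside peaks in all 16 lists, and Sfrp5 had 95.9 to 100%. Wif1 was at 65.4 to 81.4%, Sfrp1 at 44.7 to 76.8%, Sfrp2 at 13.5 to 67.5% and Dkk2 at 16.9 to 47.9%. Dkk4 had 1.67 to 34.1%, Frzb 3.89 to 40.7%, Sfrp4 0 to 25.6%, and Dkk3, a divergent member of the Dkk family, 0 to 0.685%. The Dkk genes held both the top and the bottom of this list.

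Windows around starts were more often wholly covered than whole gene windows, and a short window is also more easily filled than a long one. In the 4 kb around the start, 20 of 43 Wnt genes (46.5%) lay wholly inside peaks in all 12 Kdm6b lists, against 10.2% of all genes. The window was at 0 in all 16 lists for 3 of the Wnt genes (6.98%), against 38.1% of all genes. For 14 genes without a start in the RefSeq table the gene end with more coverage was used. That choice was made in these same lists and can only raise the coverage. Of the 20, Wnt7b, Wnt8a, Wnt10a and Rspo2 have starts chosen so. Among all 21627 genes, 17273 had a start in the table, so the choice bears unequally on the shares compared here.

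Strong peaks, those whose deposited MACS2 score (-log10 q) reached 2, were rare in every list, and they lay in the windows of 12 of the 43 Wnt genes in any of the 16 lists (27.9%) against 12.4% of all genes. Wnt8a had one in 3 of 6 cKO lists, 5 of 6 control lists and 4 of 4 B6CBAF1/J lists, Wnt1 in 1, 5 and 4, Wnt7b in 0, 6 and 4, Wnt10b in 1, 3 and 4, and Rspo2 in 0, 4 and 0. Such peaks touched 0 to 3 of the Wnt genes in cKO lists and 1 to 9 in control lists. Over all genes the share was 0.199 to 2.58% in cKO lists and 1.92 to 9.34% in control lists, so the counts of strong peaks differed between whole lists, and the scores of different lists were not compared.

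Several Wnt genes sit side by side and shared peaks. Wnt10b and Wnt1 on chromosome 15 lie 11.7 kb apart, were both at or near 100%, and shared 1 peak in 14 of 16 lists. Wnt6 and Wnt10a on chromosome 1 lie 6.70 kb apart and shared a peak in all 16 lists, with Kdm6b means of 68.1% and 100%. Wnt9b and Wnt3 on chromosome 11 overlap and shared a peak in all 16, with means of 82.7% and 91.5%. Values of such neighbours are not independent.

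Wnt3a and Wnt9a on chromosome 11 were the exception. Wnt3a (chr11:59248036-59290751) and Wnt9a (chr11:59306849-59333552) lie head to head, 16.1 kb apart. Wnt3a was inside a domain whose longest peak was 35.5 to 62.4 kb (median 61.4 kb) at a fold of 1.41 to 1.54, while Wnt9a was at 0 in every list. The last peak on the Wnt3a side ended 5.18 to 6.72 kb before the Wnt9a start (median 5.67 kb over the 16 lists). In the control list of GD5.5 IIS that last peak was a separate one of fold 1.17, and the long peak ended 7.52 kb before the Wnt9a start. The edge of the peaks thus lay in a narrow range across genotype, gestation day, site and strain. The Wnt9a start, the richest in CG of the 6 sequences shown, lay outside the domain. The edge was looked for after the coverage of both genes had been seen, and has no test.

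**Figure D2:**
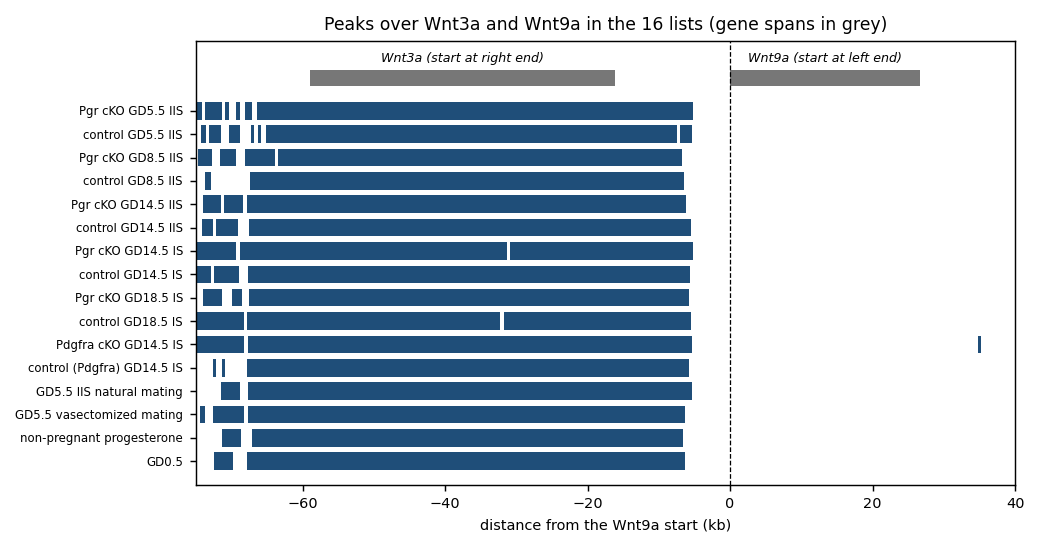
Peaks (blue bars) in each of the 16 lists (rows) against distance from the Wnt9a start in kb (x axis, dashed line at 0), with the spans of Wnt3a and Wnt9a in grey. In every list the last peak on the Wnt3a side stops 5.18 to 6.72 kb before the Wnt9a start, and no peak lies over Wnt9a.

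The next question was how loss of Kdm6b went with coverage of these genes. Coverage of Wnt2, Wnt7a, Rspo2 and Dkk2 rose in cKO lists and that of no Wnt gene fell. The test was limma fitted to 6 paired differences, with p adjusted by Benjamini-Hochberg over all 9843 genes tested and a threshold of 0.05. A rise means that more of the window lay inside peaks, and not that peaks were stronger. Rspo2 had a strong peak in 4 control lists and 0 cKO lists. Its start peak had a fold of 1.602 to 1.822 in cKO lists and 1.782 to 2.201 in control lists. In the same order Wnt7a had 1.304 to 1.417 and 1.369 to 1.467, and Wnt2 1.38 to 1.485 and 1.402 to 1.499. Dkk2 had 1.416 to 1.781 and 1.457 to 1.683. These folds were not tested. Of the 43 genes, 29 were tested, 5 were at 100% in every list, and 9 averaged under 5% and were not tested (Wnt5a, Wnt5b, Wnt9a, Sfrp4, Dkk3, Fzd1, Fzd2, Fzd3 and Fzd7). The 4 that rose are 13.8% of those tested, and 8.67% of all tested genes rose and 8.44% fell. A count of 4 is not read here as a result about the Wnt genes as a group. The median difference of the 29 was 2.18 points, and of all tested genes 0.125 points. By role, 2 of 12 tested ligands, 1 of 4 R-spondins, 1 of 7 antagonists and 0 of 6 receptors rose, and 9 of the 29 had an unadjusted p under 0.05.

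Wnt2 (chr6:17985474-18032772), a ligand known from lung and placenta development, had 68.4 to 73.8% in cKO lists (median 68.8%), against 48.0 to 60.03% in control lists (median 50.3%). The lists of the 2 genotypes did not overlap, and coverage was higher in cKO in 6 of 6 pairs. The mean difference was 17.3 ± 4.70 points (SD, n = 6 pairs, limma adjusted p = 0.00487). With every list cut to an equal covered length, where 3.31% of all tested genes rose and 5.03% fell, the difference was 2.67 points (limma adjusted p = 0.583), so this call did not hold there.

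Rspo2 (chr15:43020788-43171594), an R-spondin known from limb and lung development, had 40.6 to 48.5% in cKO lists (median 45.6%), against 28.7 to 33.7% in control lists (median 31.4%). Again the genotypes did not overlap. It had the smallest p of the Wnt genes, with a difference of 13.4 ± 2.45 points (SD, n = 6 pairs, limma adjusted p = 0.00419). At equal covered length the difference was 7.1 points (limma adjusted p = 0.0258).

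Dkk2 (chr3:132085266-132180304), which binds Lrp6 and acts mostly as an antagonist, had 34.9 to 47.9% in cKO lists (median 39.4%), against 16.9 to 28.4% in control lists (median 24.5%). No cKO list fell among the control lists. The difference was 16.5 ± 5.85 points (SD, n = 6 pairs, limma adjusted p = 0.00863), and 11.3 points at equal covered length (limma adjusted p = 0.0487).

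Wnt7a (chr6:91363981-91411353), a ligand of the uterine epithelium needed for gland formation, had 41.1 to 50.8% in cKO lists (median 45.7%), against 38.4 to 40.9% in control lists (median 39.1%). The margin between the genotypes was narrow, though they did not overlap. The difference was 6.49 ± 3.34 points (SD, n = 6 pairs, limma adjusted p = 0.0416). It lost the call with any 1 of the 6 pairs left out (limma adjusted p = 0.0643 to 0.105), at equal covered length (3.80 points, limma adjusted p = 0.117), with no flank (5.02 points, limma adjusted p = 0.1) and with the median difference subtracted (6.35 points, limma adjusted p = 0.0576).

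The cKO lists stood wholly above the control lists for these 4 genes and for Wnt8b, 5 of the 29 tested, against 3.95% of all tested genes. In Wnt8b the values lay close together, at 98.0 to 100% in cKO lists and 95.3 to 97.5% in control lists, and the difference did not pass (2.09 ± 1.28 points, limma adjusted p = 0.307). Markers of other cells were read in the same lists. Cdh1 (epithelial) had 87.8% in cKO lists and 77.3% in control lists (means of 6, limma adjusted p = 0.00677), and 11.7 points more in cKO at equal covered length (limma adjusted p = 0.0589). Tek (endothelial) had 10.1% and 1.26%. It reached the 5% level through its cKO lists alone, so its pass (limma adjusted p = 0.0185) is in part set by that level, and at equal covered length it differed by 1.09 points and was not tested. The mean over 9 epithelial genes was 88.1 to 90.7% in cKO lists and 84.1 to 90.0% in control lists, over 6 endothelial genes 19.1 to 29.2% and 14.8 to 23.5%, and 1 gene of each list passed. The median difference was 3.04 points for 7 tested epithelial, 6.65 for 5 endothelial, -4.21 for 3 smooth muscle and 0.125 for 5 immune genes. Lower in cKO were Tie1 (endothelial, -4.1 points, -16.2 at equal covered length) and Krt19 and Foxa2 (epithelial, -1.27 and -1.299). Actg2 (smooth muscle) was lower in 5 of 6 pairs (-6.85 points, limma adjusted p = 0.0842). Adgre1 (immune) was lower in 6 of 6 (-7.02 points, limma adjusted p = 0.0538). The part of other cells in the result was not tested.

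**Figure D3:**
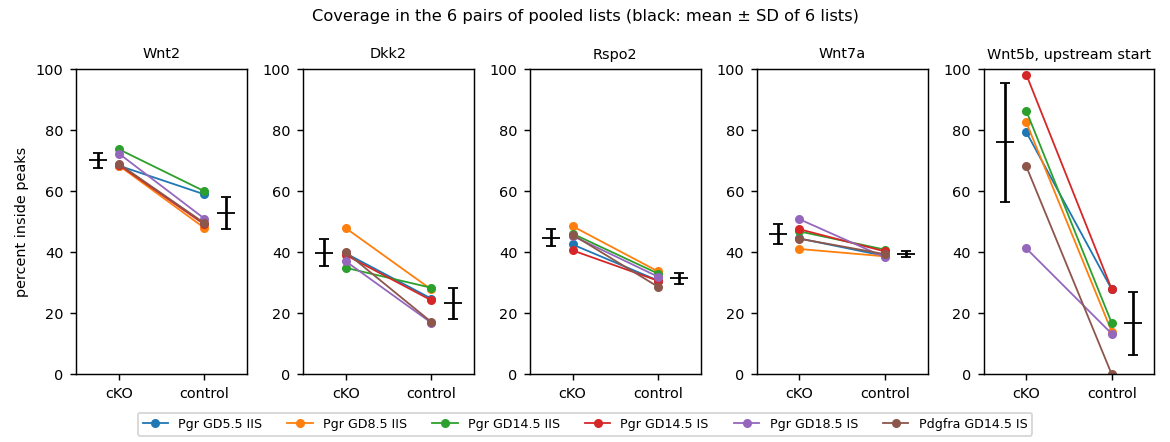
Percent inside peaks in cKO lists (left) and control lists (right) of the 6 pairs (coloured lines), with mean ± SD of 6 lists in black, for the whole windows of Wnt2, Dkk2, Rspo2 and Wnt7a and for the 4 kb around the upstream start of Wnt5b. Every line is higher on its cKO side, and the upstream Wnt5b start averages 76.0% in cKO lists and 16.6% in control lists.

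Where in the gene the difference lay was then examined, by splitting peaks into those that touched the 4 kb around the start and all others, a split added after the data were seen. In Wnt2 the start lay in a long peak of 17.2 to 40.3 kb in cKO lists (median 30.4 kb) and 15.6 to 33.1 kb in control lists (median 31.9 kb). That peak held 33.7% of the window in cKO lists and 32.9% in control lists (means, n = 6), a difference of 0.779 points that did not pass (limma adjusted p = 0.939). The rest of the gene held 9 to 16 further peaks in cKO lists and 5 to 11 in control lists, at low median folds of 1.09 to 1.12 and 1.03 to 1.14. They covered 36.4% of the window in cKO lists and 19.9% in control lists (limma adjusted p = 0.0257).

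Dkk2 had the same layout. Its start peak held 11.9% of the window in cKO lists and 9.72% in control lists (limma adjusted p = 0.497), and 16 to 22 other peaks in cKO lists and 7 to 16 in control lists held 27.9% and 13.5% (limma adjusted p = 0.0264). The 4 kb around the starts of Wnt2, Dkk2 and Wnt7a lay wholly inside peaks in all 12 lists, so nothing could rise there. In Wnt7a neither part passed, with 29.8% in cKO lists and 27.7% in control lists for the start peak (limma adjusted p = 0.791), and 16.1% and 11.6% for the others (limma adjusted p = 0.493). Over all genes, 6.0% of those tested rose and 4.0% fell in peaks away from the start, and 0.196% rose and 0.157% fell in peaks at the start.

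The annotation gives no strand for Rspo2, and its upper-coordinate end, which had more coverage, was taken as the start. Peaks there held 10.4% of the window in cKO lists and 9.40% in control lists (limma adjusted p = 0.725), and the other peaks 34.5% and 22.1% (limma adjusted p = 0.0157). The opposite end held a second domain. In the Pgr-Cre cKO GD14.5 IS list the peak that touched it was 5.06 kb long. In the other 5 cKO lists the longest peak at this end was 22.3 to 25.2 kb. In control lists the longest was 1.46 to 6.60 kb. The long form also occurred without the knockout, since the longest peak there was 22.4 kb in the vasectomized list and 23.8 kb in the progesterone list, against 2.73 kb after natural mating and 2.02 kb on GD0.5.

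**Figure D4:**
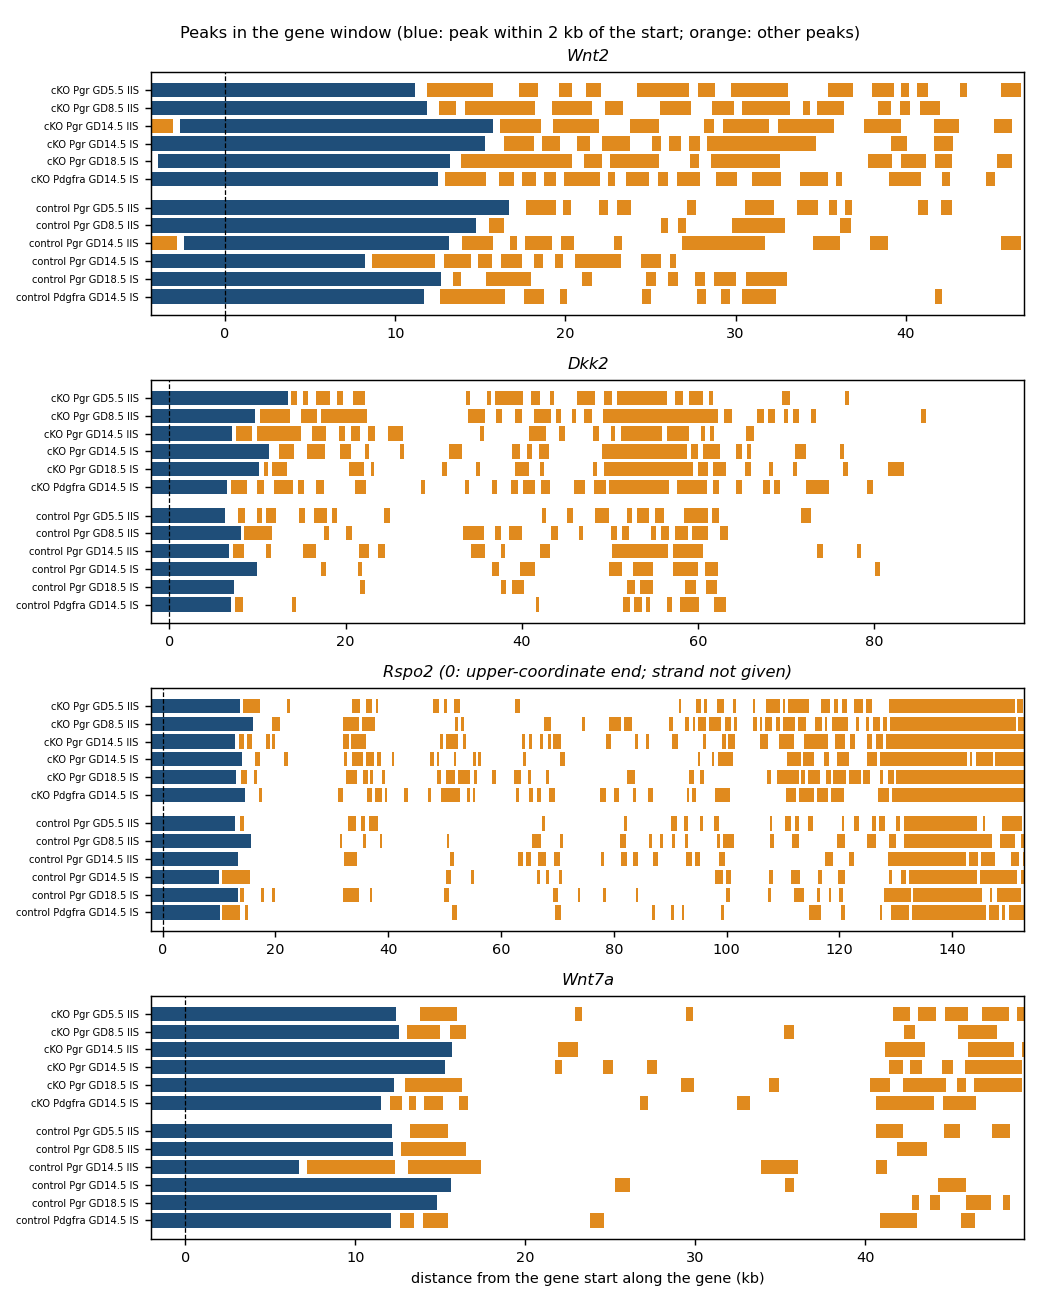
Peaks in the windows of Wnt2, Dkk2, Rspo2 and Wnt7a in 6 cKO lists (upper rows) and 6 control lists (lower rows) against distance from the gene start in kb (for Rspo2, from its upper-coordinate end), with peaks touching 2 kb either side of the start in blue and all others in orange. The blue peak holds much the same share of the window in both genotypes on average, while single pairs differ (Wnt2 38.2% in cKO and 24.4% in control, GD14.5 IS). Orange peaks are mostly more numerous in cKO lists, with 9 to 16 in Wnt2 against 5 to 11 in control lists. In the GD14.5 IIS pair their numbers are equal in Wnt2 (10 and 10) and Wnt7a (4 and 4).

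Wnt5b, a ligand close to Wnt5a, was under the 5% level over its long span and was not tested there, yet it moved at its upstream start. Its window had 2.80 to 7.64% in cKO lists and 0 to 1.49% in control lists. RefSeq gives the gene 3 starts, and the 4 kb around the inner starts, at 119467211 and 119449386 on chromosome 6, had no peak in any list. Around the upstream start at 119544347, coverage in cKO lists was 79.4, 82.6, 86.4, 98.3 and 41.3% in the order GD5.5, GD8.5, then GD14.5 IIS, then GD14.5 and GD18.5 IS with Pgr-Cre, and 68.2% with Pdgfra-Cre. The paired control lists had 27.8, 14.0, 16.8, 27.9, 13.3 and 0%. Every cKO list lay above every control list. The difference was 59.4 ± 16.9 points, higher in 6 of 6 pairs (SD, n = 6, limma on start windows of 8994 genes, adjusted p = 0.0160). By that test Wnt5b was the only Wnt gene to rise and none fell, and 1.29% of the tested start windows rose and 1.29% fell. Start windows were not tested at equal covered length. There the whole Wnt5b window was under the 5% level and not tested either (2.05 points, higher in cKO in 4 of 6 pairs). That window was at 0 in both lists of the Pgr-Cre GD14.5 IIS and Pdgfra-Cre pairs, so the upstream start kept no peak in those cKO lists. The B6CBAF1/J lists had 43.04% after natural mating, 49.3% after vasectomized mating, 80.3% under progesterone and 54.3% on GD0.5 at this start. That it was described follows from an alternative window, so it was singled out after its values were seen.

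The 25 tested genes that did not pass ranged widely. Sfrp2, a secreted ligand binder, had 35.7 to 67.5% in cKO lists and 13.5 to 48.7% in control lists, with a difference of 12.6 ± 10.4 points in 6 of 6 pairs (SD, n = 6, limma adjusted p = 0.0679). Wnt6 had 65.5 to 80.4% and 55.2 to 72.1%, also higher in 6 of 6 pairs (5.88 ± 4.62 points, limma adjusted p = 0.0911). Dkk4 was lower in 5 of 6 pairs, with 1.67 to 27.4% in cKO lists and 4.74 to 34.1% in control lists (-10.2 ± 11.1 points, limma adjusted p = 0.137). For Fzd8, 10.3 to 43.6% and 5.83 to 35.8% overlapped almost fully, and the pairs ran from -18.2 to 35.98 points. The remaining 20 and Wnt8b had adjusted p-values of 0.114 or above. In the single pairs, no Wnt gene gained or lost 50 points or more, where 0.647% of all genes gained and 2.55% lost that much in at least 1 of the 6 pairs. At equal covered length Fzd4 did lose as much. It had 49.5% in cKO and 100% in control lists of the Pgr-Cre GD14.5 IIS pair, and 15.5% and 66.0% in the Pdgfra-Cre pair. Over the 6 pairs Fzd4 differed there by -23.4 ± 30.5 points, lower in 5 (SD, limma adjusted p = 0.238).

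The rest of the pathway was looked at through 6 lists of 56 genes, of which 25 were tested, 4 rose and 2 fell in cKO, beside the 8.67% and 8.44% of all tested genes that did so. No result about the lists is read from these counts. Among co-receptors and receptor turnover, 2 of 7 tested genes rose. They were Musk, a receptor kinase of the muscle synapse with a Wnt-binding domain, with 23.9% in cKO lists and 2.02% in control lists (21.9 ± 6.02 points, limma adjusted p = 0.00424), and Ror1, a Wnt5a receptor, with 8.89% and 1.30% (7.59 ± 3.33 points, limma adjusted p = 0.0268). Both averaged under 5% in control lists and reached the tested level through their cKO lists alone, so that they were tested and higher in cKO is in part set by that level. Nkd2, which damps signalling at Dishevelled, was 1 of 3 tested intracellular genes and rose, with 21.5% in cKO lists and 6.05% in control lists (limma adjusted p = 0.00712). In ligand making and removal, Gpc6, a cell-surface glypican, rose, with 17.3% in cKO lists and 7.17% in control lists (limma adjusted p = 0.0226). Porcn, which adds the lipid that ligands need for secretion, fell to 27.8% in cKO lists, against 41.5% in control lists (limma adjusted p = 0.0379). Gpc4 fell to 40.8% in cKO lists, against 66.7% in control lists (limma adjusted p = 0.0218). Porcn and Gpc4 are on the X chromosome. So is Gpc3 of the same list, with 69.6% in cKO lists and 72.8% in control lists (limma adjusted p = 0.169). All of these X-linked genes were lower in cKO in 6 of 6 pairs. No gene passed among 4 tested other secreted antagonists, 2 nuclear genes and 4 planar polarity genes. Of the 6 genes that passed, Musk (10.2 points, limma adjusted p = 0.0399) and Nkd2 (13.8 points, limma adjusted p = 0.0182) also rose at equal covered length. There Porcn, Gpc4 and Gpc6 did not pass and Ror1 was under the 5% level. Coverage of the signalling machinery inside the cell was low, with 13 of 15 intracellular genes averaging under 10%.

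Gestation day and site were compared between single lists, with no test. No Wnt gene gained or lost 50 points between any pair of days or between IS and IIS in either genotype, where 1.0% of all genes gained and 0.684% lost that much in at least 1 of the 8 comparisons. Smaller shifts over the days are given for 5 Wnt genes, picked after their values were seen. In each of the 8 comparisons, 0.735 to 2.59% of all genes gained 25 points or more and 0.504 to 1.46% lost as much. Fzd4 and Fzd8, not among the 5, also shifted. Fzd4 went from 52.4 to 88.3% between GD14.5 and GD18.5 in cKO IS lists, and from 66.2 to 62.6% in control IS lists. Fzd8 went from 10.3 to 35.9% between GD5.5 and GD8.5 in cKO lists, and from 28.5 to 6.59% in control lists. At equal covered length Fzd8 was at 0 in both of these cKO lists, and at 2.42% and 0 in the control lists, so these shifts were not kept. Fzd4 there went from 23.4 to 80.8% in cKO IS lists and from 66.2 to 55.5% in control IS lists. Rspo1, an R-spondin with a role in ovary development, had 48.4, 13.6 and 23.8% in Pgr-Cre cKO IIS lists (GD5.5, then GD8.5, then GD14.5), and 13.7 and 6.71% in IS lists of GD14.5 and GD18.5. In control lists it had 42.3, 16.6 and 7.21% in IIS, and 3.68 and 2.71% in IS. The highest value was on GD5.5 and the lowest on GD18.5 in both genotypes. The GD5.5 lists are from IIS only and the GD18.5 lists from IS only, so day and site cannot be told apart in that ranking. Around its start the control lists had 100, 68.3 and 35.6% in IIS and 0.6 and 3.45% in IS, and the cKO lists 100, 74.8 and 58.2% in IIS and 31.97 and 24.1% in IS.

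Wnt4 ran the other way. It had 13.9, 12.6 and 32.9% in cKO IIS lists in the same order of days, and 36.1 and 30.6% in IS lists of GD14.5 and GD18.5. Control lists had 15.69, 10.8 and 22.7% in IIS and 27.5 and 31.98% in IS. The GD5.5 and GD8.5 lists were lowest in both genotypes, and the 4 kb around the start were wholly covered from GD14.5 on and at 69.6 to 81.4% before. Frzb, an antagonist first found in cartilage, had 30.9, 40.7 and 16.5% in cKO IIS and 8.73 and 13.1% in IS, and in control lists 33.6, 22.6 and 7.82% in IIS and 10.2 and 7.196% in IS. Sfrp4, another secreted ligand binder, had 22.3% in the cKO and 25.6% in the control list of GD5.5, and 0 to 4.67% in the other 10 lists. Sfrp2 had 37.4, 35.7 and 57.5% in cKO IIS and 67.5 and 50.7% in IS, and 34.9, 13.5 and 38.01% in control IIS and 43.6 and 48.7% in IS. Each such value is 1 pooled list, so its error is unknown. In both Pgr-Cre GD14.5 IS lists the peaks are also named in another form than in the other 10 Kdm6b lists.

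**Figure D5:**
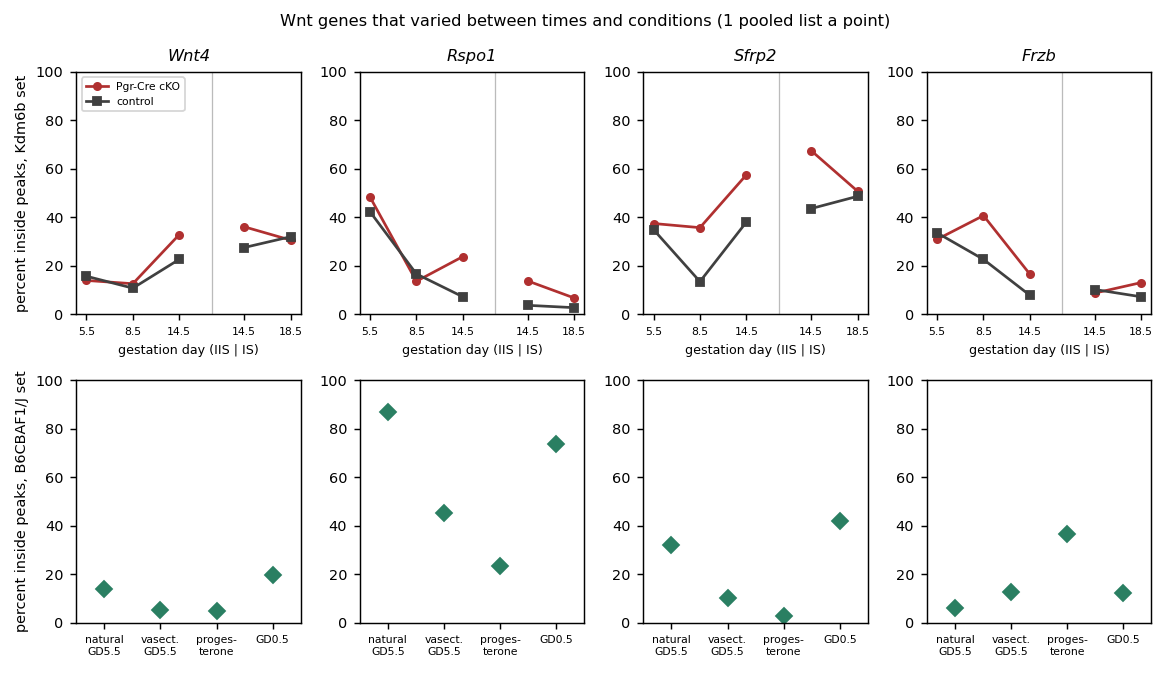
Percent of the gene window inside peaks for Wnt4, Rspo1, Sfrp2 and Frzb, by gestation day in the Pgr-Cre cKO and control lists of the Kdm6b set (top; IIS left and IS right of the grey line) and in the 4 B6CBAF1/J lists (bottom). Rspo1 is highest on GD5.5 in both genotypes (48.4% and 42.3%) and Wnt4 is lowest on GD5.5 and GD8.5, and each point is 1 pooled list.

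In the B6CBAF1/J set, Rspo1 and Fzd8 were the Wnt genes that moved by 50 points or more, both in the non-pregnant progesterone list against GD0.5. Rspo1 lost 50.5 points, with 87.1% after natural mating, 45.3% after vasectomized mating, 23.2% under progesterone and 73.7% on GD0.5. At equal covered length the loss under progesterone was 39.1 points. Fzd8, a Frizzled receptor, gained 51.6 points under progesterone, with 25.9% after natural mating, 0 after vasectomized mating, 51.6% under progesterone and 0 on GD0.5. At equal covered length it had 44.5% under progesterone and 0 on GD0.5, also short of 50 points. It has a span of 3.35 kb, so single peaks move it far. In the comparison of progesterone with GD0.5, 0.402% of all genes gained and 0.661% lost 50 points or more. No Wnt gene did so in natural mating against GD0.5 (0.305% gained and 0.24% lost), vasectomized mating against GD0.5 (0.273% each way) or natural against vasectomized mating (0.074% gained and 0.12% lost). Which genes reached 50 points depended on the setting. At equal covered length Fzd4 did, with 100% after natural mating, 100% after vasectomized mating, 91.9% under progesterone and 15.5% on GD0.5. So did Rspo1 there, with 68.1% after natural and 9.28% after vasectomized mating.

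Sfrp2 and Sfrp4 were lower in the vasectomized and progesterone lists than on GD0.5. Sfrp2 had 32.2% after natural mating, 10.3% after vasectomized mating, 2.71% under progesterone and 41.8% on GD0.5. Around its start the values were 86.9, 18.0, 0 and 74.5% in the same order. Sfrp4 had 3.46, 0, 0 and 37.1%, Wnt4 14.0, 4.99, 4.85 and 19.5%, and Frzb 5.95, 12.6, 36.4 and 11.99%, in the same order. At equal covered length Sfrp4 was at 0 in every B6CBAF1/J list, GD0.5 included, so its difference was gone there. Sfrp2 had 32.2, 10.3, 2.71 and 28.3% at that length. Fzd4 was at 100% after both matings and 91.9% under progesterone, and at 52.6% on GD0.5. Natural mating differed from vasectomized mating by 25 points or more in 2 Wnt genes, Rspo1 (41.8 points) and Fzd8 (25.9 points). Both were higher after natural mating, where 0.966% of all genes gained and 0.855% lost that much. At equal covered length Fzd8 had only 6.40% after natural and 0 after vasectomized mating. The natural-mating list came from IIS and the vasectomized list from whole uterus, so mating and tissue cannot be told apart. All comparisons with GD0.5 share 1 list.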

How the data were processed

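Per the labels, fibroblasts were freed from uterine tissue with liberase, DNase I and trypsin and purified with magnetic beads, and CUT&RUN used an antibody to H3K27me3. The submitters' processing notes name the mm10 build and STAR 2.7.5c, samtools 1.10, bedtools 2.29.1, Picard and macs2 2.2.7.1, and the lists are in the MACS2 broad-peak layout. The authors deposited 1 list per group, pooled from 3 samples. Each deposited peak has a fold over background (a ratio), a -log10 p and a -log10 q score. The other 32 samples, 20 of them inputs, are not analysed here. 1 library titled as an input names H3K27me3 as its antibody and was placed with the inputs.

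Coverage in percent was computed here from merged peaks for 21627 protein-coding genes of RefSeq GRCm38.p6 on the autosomes and the X. cKO and control were compared with limma 3.58.1 (R 4.3.3) on 6 paired differences, for genes with a mean of at least 5% over the 12 lists and a difference that varied. The 6 pairs were taken as independent, which the labels do not state, and p-values measure only the spread between pooled lists. Single comparisons (18, with 1 list a side) have no test. Other tools were python 3.11.15, numpy 2.4.6, pandas 2.3.3 and matplotlib 3.10.9. limma was also run on the centred paired differences of these lists with random signs and known shifts added. That run does not bear on read depth or on how widely a list was called.

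The members and gene lists were chosen with earlier results of these data known. Genes named in full are those that passed limma, those that gained or lost 50 points, those with a peak of -log10 q of at least 2 in 6 of 12 lists, and the highest and lowest of each role. Depth is unknown, so no interval that needs it is given. Alternatives were strong peaks, equal covered length (strongest peaks up to 80% of the shortest list), other flanks, the start window, no filter, an unpaired fit, median centring and left-out pairs. Added after the data were seen were peaks of fold 1.2 or more, peaks at or away from the start, and keeping genes without variance.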

Additional observations from a re-analysis of the deposited data

Results flagged for a closer look

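In 3 of the 29 tested genes, 1 of the 6 paired differences (cKO minus control) stood far from the other 5 by Dixon's test at its 95% critical value, which chance passes in about 1 in 20 groups of values that vary freely. Dkk4 fell by 31.3 points in the Pgr-Cre GD14.5 IIS pair (-31.3), with 1.67% in the cKO list and 32.9% in the control list, and ran from -10.2 to 1.09 points in the other pairs. Fzd10 differed by -9.65 points in the Pgr-Cre GD14.5 IS pair, with 90.4% in the cKO list and 100% in the control list, and by 0 elsewhere. Sfrp5 differed by 4.06 points in the Pdgfra-Cre GD14.5 IS pair, with 100% in the cKO list and 95.9% in the control list, and by 0 elsewhere. In Fzd10 and Sfrp5 the other 5 differences are exactly 0 because both lists stand at 100%, so any other value in the remaining pair would have stood out and the rate of 1 in 20 does not apply.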

How the results depend on the processing

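For single samples no paired analysis was possible because each list pools 3 of them and carries no replicate numbers. The main test pairs lists, and an unpaired fit of the lists made the same 4 calls. Rspo2 and Dkk2 passed at equal covered length, where 2 Wnt genes rose (282 rose and 429 fell over all genes). Leaving out 1 pair at a time, 3 Wnt genes rose and 0 fell each time, 453 to 582 of all genes rose (506, 550 and 553 without the GD8.5 IIS, GD14.5 IIS and GD18.5 IS pairs) and 343 to 811 fell (536, 369, 406 and 425 without the GD5.5 IIS, GD14.5 IIS, GD14.5 IS and GD18.5 IS pairs, all Pgr-Cre). With peaks of -log10 q of at least 2, 0 Wnt genes rose, none of the 4 was tested, and 0 rose and 4 fell over all genes. With no flank 1 Wnt gene fell, Dkk4 (-15.1 points, limma adjusted p = 0.0411), and 515 fell over all genes. In the start window 1 rose, and 116 rose and 116 fell over all genes. With no filter on mean coverage 545 fell over all genes. With peaks of fold 1.2 or more 1 Wnt gene rose, Rspo2, and 175 rose and 113 fell over all genes. Peaks at the start gave 0 rises among Wnt genes, with 15 rises and 12 falls over all genes, and peaks away from it 398 and 265. Wnt genes with at least 50% numbered 2 (Kdm6b set) and 6 (B6CBAF1/J set) with strong peaks alone. At 25 points, cKO pairs had 4 gains and 1 loss, days and sites 3 and 5, and B6CBAF1/J lists 8 and 7. At 50 points and equal covered length there were 2 losses in cKO pairs (Fzd4), 1 gain over days and sites, and 4 gains and 0 losses in B6CBAF1/J lists. At 50 points with strong peaks alone these were 3 gains and 23 losses, 8 and 12, and 3 and 5. With 5 kb flanks 6 Wnt genes rose, adding Sfrp2 (10.9 points, limma adjusted p = 0.0225) and Fzd1 (8.76 points, limma adjusted p = 0.0138), a receptor with 4.42% in control lists that was tested through its cKO lists, and B6CBAF1/J lists had 0 losses of 50 points. The causes were not tested. Depth is unknown, so small differences cannot be told from sampling.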
